A study of Homo sapiens with 6 samples.

Results

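The comparison described here set PBRT16 cells kept in the BRAF inhibitor PLX8394 against the drug-naive cells they came from. The parental group was 1205LuTR, the human melanoma line 1205Lu with mutant BRAF and an integrated reporter of ERK activity (GAL4-ELK1), grown with the solvent DMSO. The PBRT16 group was a line derived from a 1205LuTR tumor that grew in a mouse on PLX8394 and was kept in culture with 500 nM of the drug. A second resistant line, PBRT15, from another such tumor and kept at the same dose, is used below for comparison. Each group had 2 RNA-seq libraries, and the labels do not say whether these came from separate cultures, so the p-values measure the spread between libraries, which may be technical. Both lines and the parental cells carried the same reporter and grew in the same medium. Because PBRT16 was read in drug and parental cells without it, effects of the line and of the drug cannot be told apart, and PBRT16 descends from 1 tumor only. Of 60617 gene identifiers, 16051 had a value of at least 10 in at least 2 of the 4 parental and PBRT16 libraries, and these genes are the subject of the comparison.

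Mutant BRAF keeps the kinases MEK and ERK active, and ERK drives both growth and a set of genes that hold the pathway back (dual-specificity phosphatases, Sprouty and SPRED proteins). PLX8394 is a BRAF inhibitor of the paradox-breaker type, made to inhibit mutant BRAF without activating ERK in cells with normal BRAF. Melanoma cells come from the melanocyte lineage, which arises in the neural crest and depends on factors such as SOX10 and MITF. Cells that survive inhibition of this pathway often lose part of that identity and take on features of mesenchymal or undifferentiated cells.

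The values are the deposited normalized signal per gene. They summed to between 27877963 and 28556935 across the 4 libraries. Among values near 1, the only ones searched, the commonest of each library lay between 0.907 and 1.067, and lower values above 0 also occur. If that commonest value is taken as 1 read, a value of 10 stands for roughly as many reads. This was not tested, and mentions of a few reads below are meant in this sense. Both pairs of libraries were alike, with a correlation across genes (which are not independent replicates) of 0.9864 for parental and 0.9868 for PBRT16 on the log2 scale. The cells were checked against markers of their lineage and of other cell types. The pigment genes TYR, PMEL and MLANA were already at or near 0 in parental cells (TYR was listed at 0 in all 4 libraries, and MLANA at 9.19 and 7.93 in parental and 16.2 and 6.57 in PBRT16 cells), whereas SOX10 and S100B were abundant there. Of 10 endothelial, 10 leukocyte and 9 keratinocyte markers, 6, 8 and 6 stayed under 10 in all 4 libraries. CD3E, EMCN and PLVAP were listed at 0 in each. The leukocyte markers summed to 842 and 1268 in parental and 2263 and 3169 in PBRT16 cells, nearly all from CD68 (819 and 1260 to 2146 and 3118). The endothelial markers summed to 44.1 and 54.7 and 92.8 and 101, most of the difference coming from ERG. The keratinocyte markers summed to 646 and 544 and 357 and 376. The 12 fibroblast markers summed to 7669.6 and 6846 in parental and 20637 and 27365 in PBRT16 cells, most of the difference coming from COL1A1 and PDGFRB. PDGFRA went down, from 6708 and 5673 to 3324 and 4339, and FAP from 41.5 and 13.1 to 0.603 and 5.04. Of the 8 fibroblast markers in the comparison, 4 rose and 2 fell by limma at an adjusted p of at most 0.05. LUM, THY1, DPT and PI16 stayed under 10. The 8 pericyte markers summed to 7317 and 7707 and 12936 and 14046, and the 30 melanocyte and neural crest markers to 50798 and 43679 and 6389.8 and 6787. Most of the pericyte sum was MCAM (3119 and 3554 to 5407 and 5192) and CSPG4 (3425 and 3434 to 5398 and 6111). RGS5 went from 84 and 96.1 to 76.4 and 79.7 and ACTA2 from 118 and 114 to 71 and 81.1. By limma 4 of the 6 pericyte markers in the comparison rose and 0 fell at the adjusted p. The part of other cell types in the results was not tested.

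In limma fits on log2(value + 1), 2109 genes (13.1% of those tested) were higher in PBRT16 and 1641 (10.2%) were lower, called where the adjusted p did not exceed 0.05 and the values differed 2-fold or more. Without the fold limit 3478 genes (21.7%) rose and 3225 (20.1%) fell; "rose" and "fell" below mean this adjusted p. These shares are the background of the counts in each gene list. The libraries of the groups did not overlap for 6045 genes (37.7%) that were higher and 6285 (39.2%) that were lower, a count that needs no test and is far looser. The median log2 fold change over all genes was -0.013, as the common scale of the deposited values would set it. Among the called genes 973 were higher and 792 lower by at least 4-fold, and 171 and 193 by at least 32-fold on the log2(value + 1) scale. Where the mean of both groups reached 10, these counts were 505 and 390 and 36 and 43. The others had a group near 0, where the size depends on the pseudocount. Genes could enter through 1 group alone: 644 reached the minimum in PBRT16 libraries only, of which 535 were called higher, and 527 in parental libraries only, of which 432 were called lower, since such genes had to differ. Among the 14880 genes that reached it in both groups, 1574 (10.6%) were higher and 1209 (8.12%) lower. The median standard error of a log2 fold change was 0.171.

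**Figure D1:**
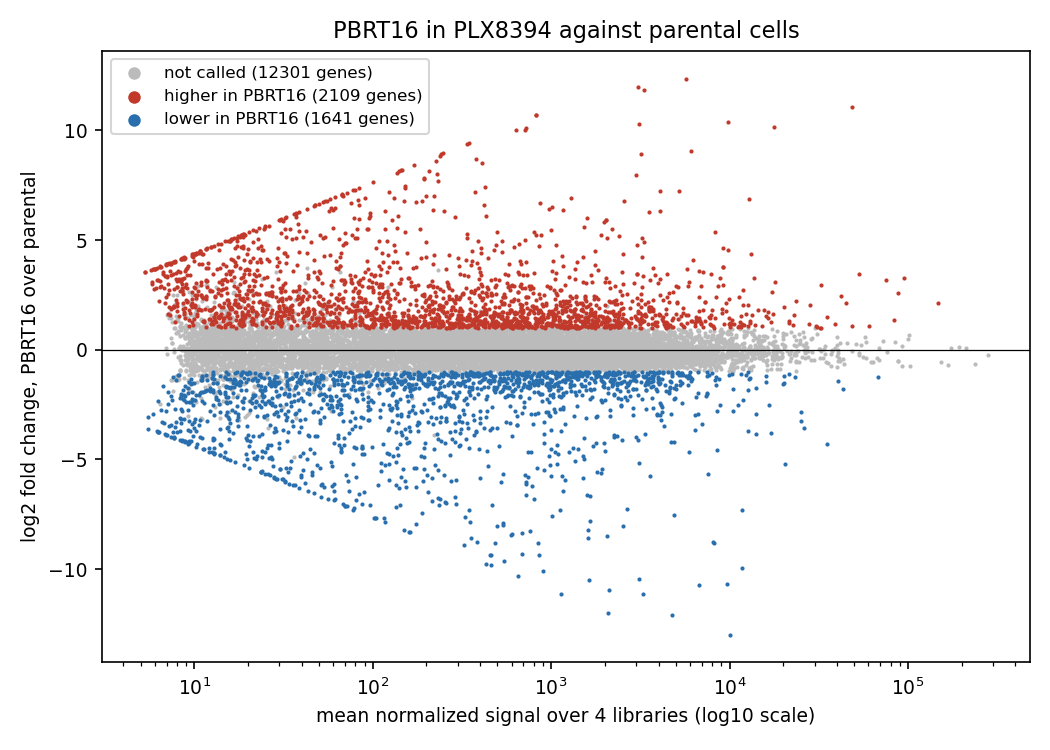
Mean signal of each of the 16051 genes over the 4 parental and PBRT16 libraries (x axis, log10 scale) against the log2 fold change of PBRT16 over parental cells (y axis); the 2109 genes called higher and the 1641 called lower are colored, the others grey. Called genes reach from near the minimum to the most abundant transcripts, and the extremes on both sides are genes that 1 of the groups hardly expressed.

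Transcripts of secreted proteins that were abundant in parental cells were among the largest falls. TGFA, a ligand of the EGF receptor, had values of 22151 and 18245 in parental and 0.692 and 2.63 in PBRT16 libraries. S100B and S100A1, calcium-binding proteins of glia and melanocytes, went from 10992 and 8075 to 1.15 and 1.22 and from 14040.3 and 12928 to 8.3 and 5.87. MIA, a small secreted protein used as a serum marker of melanoma, was at 4005 and 4307 in parental cells and listed at 0 in both PBRT16 libraries. The lower values of these genes sit at the level of a few reads, so no fold is given for them. SERPINA3, a secreted protease inhibitor, stood at 25824 and 12704 against 10.6 and 9.78, and ACAN, the cartilage proteoglycan aggrecan, at 6706 and 5648 against 3.02 and 3.8. IL1B, the inflammatory cytokine interleukin 1β, fell from 23208 and 23758 to 19.9 and 25.8 (log2 fold change -9.95 ± 0.17), and CHRDL1, a secreted inhibitor of BMP signaling, from 18311 and 14299.8 to 49.3 and 25.6 (-8.79 ± 0.33). Both keep enough signal in PBRT16 for a fold to be read.

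Further large falls came from genes of varied function. PTPRZ1, a receptor phosphatase of glia, had 7152 and 5906 in parental and 3.6 and 0.773 in PBRT16 cells. The glutamate receptor subunit GRIK3 went from 3169 and 3349.98 to 0.907 and 1.74. GABRA3, a subunit of a GABA receptor, moved the other way, from 16.2 and 15.02 to 1653 and 1792 (6.70 ± 0.15). DNAH9, an axonemal dynein heavy chain of cilia, EXTL1, a glycosyltransferase of heparan sulfate synthesis, and ITIH6 had parental values of 2377 and 2145, 1426 and 1171 and 1155 and 689 in that order, and all 3 were listed at 0 in PBRT16. The synaptic vesicle protein SV2A (635 and 661 to 0 and 0.875), the lysine-degrading dehydrogenase ALDH7A1 (1009 and 937 to 3.63 and 0) and the mucin MUC5B (2214 and 1159 to 2.9 and 2.26) were lost in the same way. FGFBP2, FREM1, CD96, a surface receptor best known from T and NK cells, and RNF128 were also left at or near 0 in PBRT16, each with parental values between 571 and 1821 and PBRT16 values of at most 2.51.

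Genes of secreted proteins were also among the largest rises. CXCL12, the chemokine that signals through CXCR4, rose from 0.611 and 1.89 to 11508 and 11216. MASP1, a protease that starts the lectin pathway of complement, rose from 1.34 and 0 to 5946 and 6349, and C1S, a protease of the classical pathway, from 15.5 and 12.1 to 19055 and 19968 (10.37 ± 0.16). IGFBP5, which binds insulin-like growth factors, rose from 47.3 and 40.3 to 111080.0000 and 84163 (11.08 ± 0.22) and came to be among the most abundant transcripts of PBRT16. CLU, the extracellular chaperone clusterin, rose from 12.5 and 11.98 to 5723 and 7046 (8.91 ± 0.30); CCDC80, a matrix protein, from 17.0001 and 51.3 to 38171 and 32622 (10.17 ± 0.59). Libraries that did not overlap were a condition for naming a gene among the largest rises and falls. CEMIP, which degrades hyaluronan, rose from 136 and 349 to 27282 and 23303 (6.85 ± 0.49), and CPZ and GLDN, a carboxypeptidase and gliomedin, an adhesion protein of the node of Ranvier, rose from values of at most 0.924 to at least 1131. CCBE1, a secreted factor of lymphatic growth, reached 795 and 690.2 and the glycoprotein PSG5 reached 642 and 1004; the pregnancy-specific glycoproteins are close copies of each other, so reads may be shared among them.

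Genes of membrane and cytoplasmic proteins rose too, several of them from near nothing. OLR1, the receptor for oxidized LDL, had 2.21 and 0 in parental and 8062 and 5195 in PBRT16 libraries, which made the PBRT16 libraries differ from each other more than most genes here did. TMEM52B was at 0 in each parental library and reached 1719 and 1562. CDK15, an uncommon cyclin-dependent kinase, stood at 0.615 and 0 against 1767 and 1121, and ATP8B1, a phospholipid flippase, at 4.47 and 3.39 against 911 and 793. CD24, a small surface glycoprotein, rose from 57.8 and 77.4 to 9218 and 11371 (7.24 ± 0.19), SLC12A8 from 65.2 and 42.9 to 8181 and 7965 (7.23 ± 0.23), and CPA4, a carboxypeptidase, from 17.9 and 28.6 to 6373 and 5481 (7.97 ± 0.39). GPNMB, a glycoprotein of melanosomes and lysosomes, had 1.65 and 8.01 in parental and 4823 and 7602 in PBRT16 cells. GALNT15, which starts O-linked glycosylation, rose from 30.1 and 12.6 to 1879 and 3259 (6.91 ± 0.63), and BOC, a co-receptor for Hedgehog ligands, from 3.95 and 13.6 to 909.7 and 744.

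**Figure D2:**
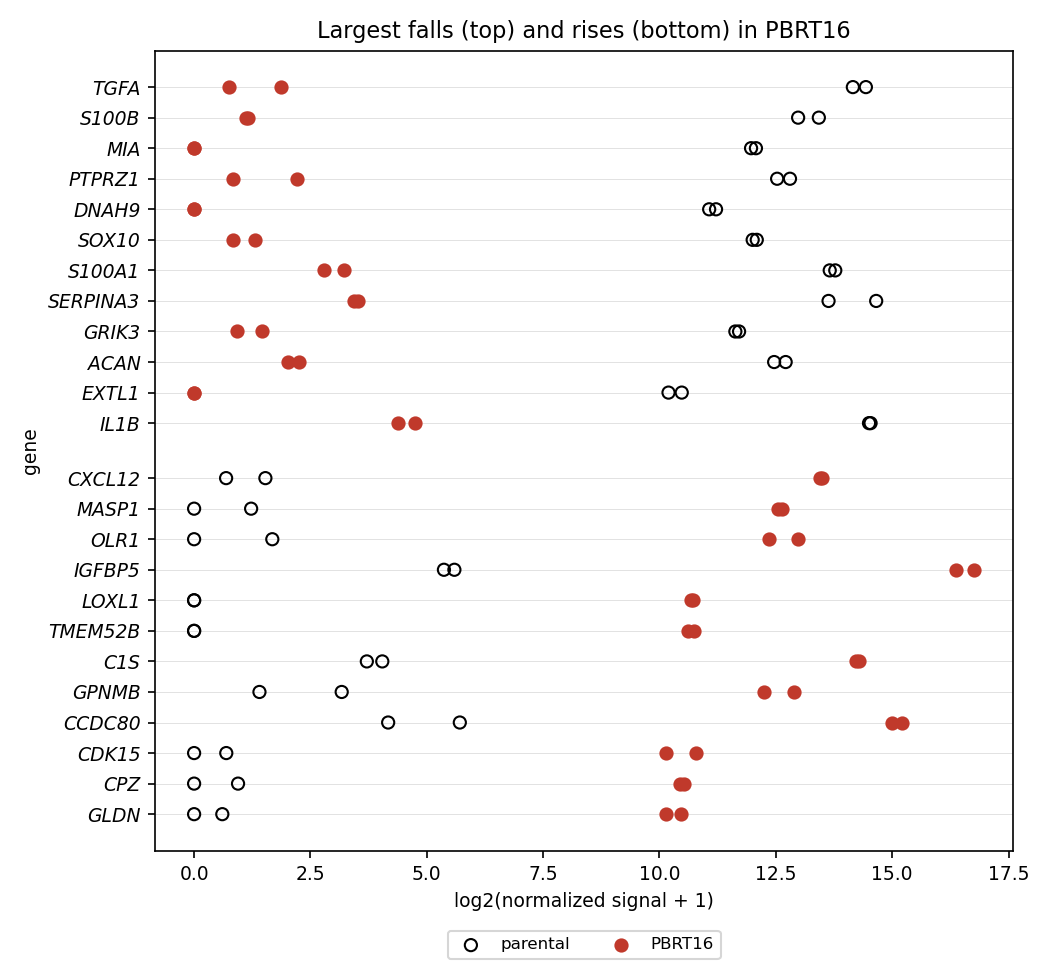
Signal per library, as log2(value + 1), of the 12 largest falls (upper part) and 12 largest rises (lower part) in PBRT16. They were taken among called protein-coding genes with a mean of at least 500 in the higher group and libraries that did not overlap. Open circles are the 2 parental libraries and filled circles the 2 PBRT16 libraries. In every line the pairs lie far apart, and in most of them the low pair sits at the left edge, where a gene has a few reads or none.

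GPNMB, CPA4, GALNT15 and BOC were also among the largest rises and falls whose promoter held the AP-1 letters TGANTCA on either strand. Of these changes, 16 rises and 20 falls had a promoter in the RefSeq table. Genes from part of the genome were left out before the matches were listed, so these 4 need not be all that match. All 4 rose. AP-1 is the dimer of JUN and FOS proteins that ERK and JNK signaling act on. The sequences run from 250 bases before to 50 bases after the annotated start on GRCh38.p14, are printed from the gene's strand, and show the matching letters in capitals; a match is not evidence of binding. They lie at chr7:23246525-23246824 (+ strand), chr7:130292911-130293210 (+ strand), chr3:16174430-16174729 (+ strand) and chr3:113211866-113212165 (+ strand).
GPNMB: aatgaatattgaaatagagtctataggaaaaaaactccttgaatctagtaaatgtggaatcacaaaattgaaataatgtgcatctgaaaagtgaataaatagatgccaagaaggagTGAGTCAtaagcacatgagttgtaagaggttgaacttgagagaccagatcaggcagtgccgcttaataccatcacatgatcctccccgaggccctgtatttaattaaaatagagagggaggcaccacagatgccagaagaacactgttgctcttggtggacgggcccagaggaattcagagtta
CPA4: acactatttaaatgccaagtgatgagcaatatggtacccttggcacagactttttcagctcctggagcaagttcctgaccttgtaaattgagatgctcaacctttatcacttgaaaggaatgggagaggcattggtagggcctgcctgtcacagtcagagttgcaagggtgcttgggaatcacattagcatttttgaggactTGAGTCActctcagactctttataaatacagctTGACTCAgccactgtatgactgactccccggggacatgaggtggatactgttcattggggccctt
GALNT15: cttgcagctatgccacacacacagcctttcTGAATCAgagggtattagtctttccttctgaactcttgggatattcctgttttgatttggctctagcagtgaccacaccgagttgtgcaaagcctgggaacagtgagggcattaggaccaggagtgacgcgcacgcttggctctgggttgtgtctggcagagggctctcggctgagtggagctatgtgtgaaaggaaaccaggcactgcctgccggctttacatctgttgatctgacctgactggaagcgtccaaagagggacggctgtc
BOC: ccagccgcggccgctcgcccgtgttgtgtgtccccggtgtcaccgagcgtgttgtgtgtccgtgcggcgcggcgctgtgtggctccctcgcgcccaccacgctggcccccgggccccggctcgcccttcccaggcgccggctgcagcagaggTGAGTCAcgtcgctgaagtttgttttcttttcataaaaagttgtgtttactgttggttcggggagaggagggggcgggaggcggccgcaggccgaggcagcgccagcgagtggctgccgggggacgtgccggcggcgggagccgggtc
In CPA4 the 2 matches began 48 and 15 bases before the start, and in GPNMB, BOC and GALNT15 the match began 134, 98 and 220 bases before it. Over the comparison as a whole, 11384 genes had a promoter in the table. The AP-1 letters were in 103 of 1451 promoters (7.1%) of genes called higher, in 69 of 1108 (6.23%) of genes called lower and in 368 of 8825 (4.17%) of the others, beside 7.76% of all 27305 promoters in the table. The M-box letters CATGTG, bound by MITF, were in 7.86%, 7.94% and 6.38% of the same 3 classes, the TEAD letters GGAATG in 12.7%, 11.9% and 10.3%, and the SOX letters ACAAAG in 13.5%, 12.7% and 10.1%. The hypoxia letters ACGTG and the CRE letters TGACGTCA were less frequent in called genes (22.2% and 21.4% against 27.9%, and 2.27% and 2.44% against 3.56%). Higher and lower genes thus had similar shares for each motif, and both differed from the uncalled genes in the same sense; the table's shares over all promoters were 11.2%, 14.05%, 16.0%, 21.6% and 1.98% for these 5 motifs in the same order.

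Most melanocyte and neural crest genes in the comparison fell. Of the 19 of 30 melanocyte and neural crest genes in the comparison (9 through 1 group alone), 14 fell and 4 rose, with a median log2 fold change of -4.48. In bulk RNA, fewer cells expressing a gene and less RNA per cell cannot be told apart. SOX10 was at 4360.5 and 4103 in parental and 1.49 and 0.778 in PBRT16 cells, the receptor ERBB3 at 1291 and 1089 and 0.956 and 4.99, and FOXD3, a neural crest factor that maintains progenitors, at 181 and 105 and then listed at 0. SOX9 and SOX2 fell to 764 and 1094 and 66.6 and 50.6 from 8030.1 and 6364 and 585 and 521 (-2.97 ± 0.22 and -3.23 ± 0.17), and PAX3 from 689 and 731 to 421 and 421 (-0.75 ± 0.13). MITF and TFAP2A went against this group, from 109 and 113 to 2209.5 and 2159 (4.28 ± 0.12) and from 439 and 492 to 1398 and 1279 (1.52 ± 0.12). The call of PAX3 ended without a library (adjusted p = 0.0578 without PBRT16 replicate 2). LEF1, the nuclear partner of β-catenin, fell from 2068 and 1831 to 37.9 and 32.2 (-5.76 ± 0.14).

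Homeobox factors outside the HOX clusters split, with 16 of 36 rising and 10 falling, against 21.7% and 20.1% of all genes. PRRX1, a factor of limb and craniofacial mesenchyme, dropped from 4962 and 3215 to 10.2 and 9.88 (-8.50 ± 0.23), and POU3F2 (BRN2), a neural factor linked to invasive melanoma cells, from 1144 and 833 to 2.71 and 2.82. In the other direction ALX4, another craniofacial factor, rose from 212 and 182 to 2350.5 and 2694 (3.67 ± 0.29), PITX1, a hindlimb factor, from 23.9 and 34.4 to 309 and 266 (3.28 ± 0.22), and MSX2 from 104 and 130.02 to 719 and 618 (2.51 ± 0.26). MEOX1 was listed at 0 in parental cells and reached 36.5 and 25.3. T-box, forkhead, GATA and RUNX factors rose in 9 and fell in 7 of 26 cases: TBX3 rose from 309 and 284 to 1905 and 1998 (2.72 ± 0.11) while its close relative TBX2 fell from 398 and 267 to 43.7 and 47.2 (-2.82 ± 0.28). FOXF1 and FOXF2, factors of visceral mesenchyme, rose to 2911 and 2820.1 and 1114 and 1046 from 1082 and 1029 and 248 and 252 (1.44 ± 0.14 and 2.10 ± 0.11); RUNX3 fell from 156 and 131 to 0.87 and 1.81. Among 28 nuclear receptors, 11 rose and 8 fell. The glucocorticoid receptor NR3C1 rose from 1511 and 1554 to 5034 and 5961 (1.84 ± 0.14), while all 3 members of the NR4A family of early-response receptors fell, NR4A1 from 304 and 226 to 48.5 and 55.2 (-2.32 ± 0.19).

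Feedback and output genes of ERK were among the groups with the most one-sided change. Of 31 genes in that list 21 fell and 2 rose, with a median log2 fold change of -1.94. SPRY4, which restrains RAS signaling below receptor kinases, fell from 17224 and 14982 to 33.5 and 39.2 (-8.75 ± 0.14), SPRY2 from 4383 and 4374 to 229 and 364 (-3.92 ± 0.28), and DUSP6, the phosphatase that acts on ERK, from 3521 and 3998 to 49.8 and 145 (-5.45 ± 0.53). The ETS factor ETV1, transcribed in response to ERK, fell from 1895 and 1797 to 100.04 and 207 (-3.67 ± 0.35). ETV4, ETV5 and DUSP4, chosen after their values were seen, fell as well (-3.00 ± 0.17, -1.81 ± 0.18 and -2.59 ± 0.19). DUSP1, a phosphatase that is also induced by stress kinases, rose from 251 and 294 to 2711 and 4110.2 (3.62 ± 0.54), with EPHA4 the other member that rose (1.11 ± 0.24). In the wider list of immediate early and AP-1 genes the balance was even, with 10 of 35 rising and 9 falling. EGR3 and EGR2 fell to 0.795 and 9.91 and 9 and 31.6 from 1163 and 981 and 219.99 and 229.7, whereas the AP-1 member FOSL2 rose from 679 and 619 to 7277 and 6666 (3.42 ± 0.12) and the large MAF factor MAF rose from 136 and 127 to 589 and 804. Of these, EPHA4, EGR3 and EGR2 lost their call when a library was left out (adjusted p = 0.103 without parental replicate 1, adjusted p = 0.0858 without parental replicate 1 and adjusted p = 0.0975 without parental replicate 1). EGR1 itself, chosen after its values were seen, was at 4356 and 5050.2 in parental and at 2191 and 6010.02 in PBRT16 libraries and did not pass the test (adjusted p = 0.75).

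Of 60 MAPK pathway kinases and RAS proteins, 14 rose and 14 fell (23.3% each), near the 21.7% and 20.1% of all genes. MAP3K8 (COT), a kinase that can activate MEK without RAF, rose from 9.14 and 17.1 to 92.6 and 116 (2.95 ± 0.41), and MRAS and RRAS, relatives of the RAS oncoproteins, rose to 858 and 1096 and 1035 and 1209 from 315 and 298 and 383 and 329.96 (1.66 ± 0.16 and 1.65 ± 0.18). The S6 kinases RPS6KA1 and RPS6KA2, substrates of ERK, fell from 2109 and 2696 to 285 and 297 (-3.03 ± 0.20) and from 621 and 792 to 197 and 108 (-2.26 ± 0.32). Among 75 small GTPase regulators (7 through 1 group alone) 15 rose and 23 fell. RASGRP3, an activator of RAS and RAP proteins, went from 0.337 and 6.54 to 395 and 296 and ARHGAP29 from 559 and 602 to 5888 and 6070.2 (3.36 ± 0.12).

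Most p53 target genes fell. Of 33 such genes 20 fell and 3 rose, with a median of -0.83. CDKN1A, the p21 inhibitor of cyclin-dependent kinases, fell from 4268 and 5155 to 252 and 296 (-4.10 ± 0.30), ZMAT3 from 4361 and 4037 to 696 and 769 (-2.52 ± 0.14) and EDA2R from 431 and 474 to 8.75 and 9.39. MDM2, the ubiquitin ligase of p53 and chosen after its values were seen, fell from 5768 and 5294 to 1787 and 1626 (-1.70 ± 0.13). The members that rose were GADD45B, GADD45A and PERP (2.44 ± 0.25, 1.28 ± 0.20 and 1.00 ± 0.14), of which the GADD45 genes are also stress-response genes. Other cell cycle lists moved less: 12 of 41 cyclins, CDKs and their inhibitors fell and 4 rose. CCND1, cyclin D1, fell from 6269 and 6812 to 2122 and 2172 (-1.61 ± 0.14), and CDKN1B (p27) rose from 965 and 1141 to 1947 and 1690.1 (0.79 ± 0.15). Replication and origin licensing genes fell in 12 of 51 cases and rose in 2, DNA repair genes in 25 and 4 of 73, with medians of -0.27 and -0.30. The falls there were small: ERCC1, LIG3 and GINS4 led them at -1.08 ± 0.15, -1.02 ± 0.14 and -1.10 ± 0.23. The calls of GINS4 and CDKN1B ended without a library (adjusted p = 0.0826 without parental replicate 1 and adjusted p = 0.0655 without PBRT16 replicate 1).

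Among apoptosis regulators 11 of 37 rose and 8 fell. BCL2A1, a survival protein of the BCL2 family that MITF is known to activate, was at 68.7 and 43.7 in parental cells and listed at 0 in PBRT16, the opposite direction to MITF itself. MCL1 fell from 20467 and 22689 to 5275 and 7763 (-1.75 ± 0.27), BCL2 from 461 and 462 to 219 and 193 (-1.16 ± 0.12) and BAX, which permeabilizes mitochondria, from 2054 and 2219 to 1110.3 and 1203 (-0.89 ± 0.12). BMF, a BH3-only protein, rose from 43.9 and 30.2 to 227 and 354 (2.93 ± 0.80), a call that ended when a library was left out (adjusted p = 0.155 without parental replicate 2). The inflammatory caspases CASP1 and CASP4 rose from 3.26 and 1.28 to 388 and 401 and from 97.8 and 123 to 704 and 1033 (2.95 ± 0.24). Of the inhibitor of apoptosis proteins, BIRC3 (cIAP2) rose from 226 and 212 to 1866 and 1481 (2.92 ± 0.15), whereas BIRC2 (cIAP1) at 3353 and 3072 and 4685 and 4227 and XIAP at 2023 and 1877 and 1374 and 1759.9 did not pass the test; their log2 fold changes had 95% intervals of -0.13 to 1.07 and -0.73 to 0.08. In the NF-kB list 10 of 27 genes rose and 5 fell. MAP3K14 (NIK), the kinase that opens the noncanonical pathway and that cIAP proteins normally keep low, rose from 309.9 and 321 to 2962 and 2445 (3.09 ± 0.14), and the coactivator BCL3 from 64.5 and 98.1 to 319.8 and 349 (2.06 ± 0.31), while NFKB1 fell from 1806 and 1812 to 870.2 and 856 (-1.07 ± 0.12) and the adaptor TRAF1 from 7742 and 6081 to 1071 and 764 (-2.92 ± 0.22).

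Interferon-stimulated genes rose in most cases. Of 74 listed, 65 entered the comparison (6 through 1 group alone) and 56 of these 65 rose. By limma none fell at the adjusted p (0 at an unadjusted p under 0.05), and the median log2 fold change was 1.96. IFI27 rose from 35.4 and 54.99 to 6145 and 4032 (6.79 ± 0.29), and EPSTI1, MX2 and IFITM1 from at most 2.2 to values between 168 and 706. The PBRT16 libraries differed from each other here, with replicate 1 the higher for 51 of the 56 genes and IFITM1 at 706 and 168; in the parental libraries replicate 1 was the higher for 19. ISG15, IRF9 and IRF1, chosen after their values were seen, rose to 408 and 187, 753 and 584 and 1218 and 1039 from 11.99 and 12.3, 206 and 174 and 164 and 204. Antigen presentation moved with them, 15 of 26 genes rising and 5 falling. HLA-B, HLA-C and HLA-F, heavy chains of class I molecules, rose by 2.92 ± 0.18, 2.38 ± 0.17 and 2.24 ± 0.17 on the log2 scale, and NLRC5, the activator of class I genes, rose from 36.7 and 72.9 to 393 and 365 (2.85 ± 0.36); class I genes are similar enough that reads may be shared among them. The immunoproteasome subunits PSMB9, PSMB8 and PSMB10 rose by 2.34 ± 0.13, 1.82 ± 0.15 and 1.76 ± 0.23. Of all 42 proteasome genes 6 rose and 6 fell (14.3% each), below the 21.7% and 20.1% of all genes, and 0 were called lower. CALR and PDIA3, folding helpers of class I molecules, were among the members that fell (-0.54 ± 0.16 and -0.54 ± 0.14), calls that did not outlast the loss of a library (adjusted p = 0.165 without PBRT16 replicate 1 and adjusted p = 0.136 without PBRT16 replicate 1).

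Interleukins, their receptors and related cytokines rose in 29 and fell in 15 of 59 cases. IL32 rose from 92.4 and 91.7 to 4709 and 3859 (5.52 ± 0.20), IL7R from 100.5 and 92.4 to 4178 and 3286 (5.25 ± 0.56), and the TNF receptor family member TNFRSF9 from 2.01 and 0 to 424 and 349.8; IL34, a ligand of CSF1R, was listed at 0 in parental cells and reached 176 and 112. IL1A fell with IL1B (219 and 164 to 0 and 0.938), and LIF, a cytokine of the IL6 family, fell from 11968 and 13775 to 1129 and 1317 (-3.40 ± 0.44). The receptor LIFR, chosen after its values were seen, rose from 3855 and 3696 to 33758 and 30725 (3.09 ± 0.12). Of 13 chemokines (7 through 1 group alone) 9 rose and 2 fell. The interferon-inducible CXCL10 was listed at 0 in parental cells and reached 354 and 195, and CCL5 72.8 and 32.7. CX3CL1 and CCL20 fell from 463 and 543 and 294 and 275 to 3.94 and 2.46 and 2.92 and 5.86. Immune ligands and checkpoints rose in 10 and fell in 9 of 33 cases: PDCD1LG2 (PD-L2) and CD47, the signal that inhibits phagocytosis, rose to 638 and 498 and 4767 and 4844 from 49.6 and 52.9 and 1530.1 and 1505 (3.44 ± 0.22 and 1.66 ± 0.11), while CD70, CD200 and the adenosine-producing enzyme NT5E (CD73) fell to 129 and 92.2, 5.5 and 7.89 and 1210.4 and 1692 from 1117 and 1251, 416 and 377 and 11951 and 10888. Complement, coagulation and serpin genes rose in 16 and fell in 9 of 37 cases. C1R, the partner protease of C1S, rose from 347 and 449 to 14345 and 18026 (5.35 ± 0.20), and the plasminogen activator PLAT fell from 33434 and 30385 to 2094 and 2454 (-3.81 ± 0.20).

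**Figure D3:**
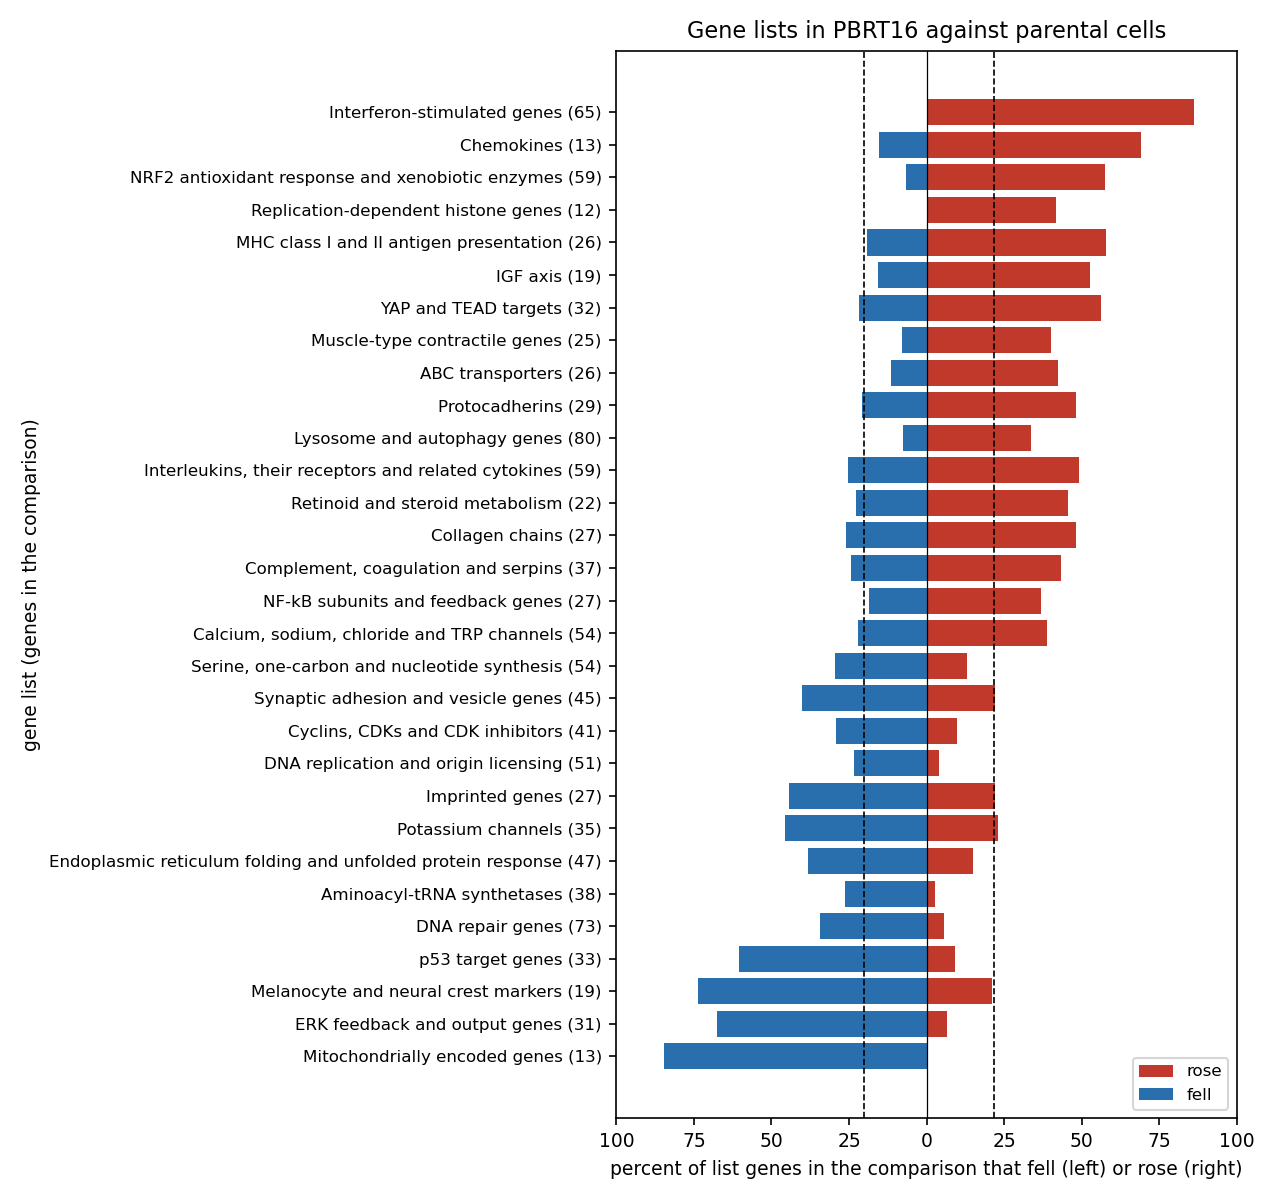
Share of the genes of each list that rose (right) or fell (left) in PBRT16 at an adjusted p of at most 0.05, for the 30 lists, among those with at least 10 genes in the comparison, in which the rising and falling shares differ most; the number of list genes in the comparison stands beside each name and the dashed lines mark the shares over all genes, 21.7% and 20.1%. Interferon-stimulated genes and chemokines lie farthest to the right, and mitochondrially encoded genes and melanocyte genes farthest to the left.

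Of 38 receptor tyrosine kinases 15 rose and 15 fell. Of them 10 entered through 1 group alone. PDGFRB rose from 161 and 273 to 5447 and 6253 (4.79 ± 0.28), MET, the receptor of hepatocyte growth factor, from 202 and 265 to 2156 and 2412 (3.29 ± 0.22), and EPHB2 from 380.3 and 502 to 3552 and 3961 (3.10 ± 0.17). Besides ERBB3, the receptors EPHB1 (1192 and 1219 to 3.58 and 1.86), ALK (304 and 307 to 2.92 and 3) and NTRK2 (485 and 595 to 6.3 and 8.92) fell to near 0. EGFR, chosen after its values were seen, rose from 1695 and 1799 to 4959 and 5148 (1.53 ± 0.11) while its ligand TGFA was lost. Among growth factor ligands 14 of 39 rose and 12 fell: INHBB, an activin subunit, rose from 73.1 and 58.001 to 4263 and 3704 (5.91 ± 0.16) and PDGFB from 3.32 and 19.1 to 275 and 228 (4.75 ± 0.73), and GDNF fell from 6709.5 and 4592 to 375 and 329 (-3.98 ± 0.24). In the IGF axis 10 of 19 genes rose and 3 fell. IGF2 fell from 3172 and 3215 to 5.8 and 9.47 and the adaptor IRS2 from 3018 and 2414 to 107 and 128 (-4.52 ± 0.22), while the binding proteins IGFBP4 and IGFBP3 rose to 8028 and 8432 and 14647 and 12917 from 776 and 712 and 4127 and 4364 (3.47 ± 0.13 and 1.70 ± 0.25).

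WNT pathway genes rose in 19 and fell in 13 of 46 cases, with ligands, receptors and secreted inhibitors on both sides. WNT5B, a ligand of noncanonical signaling, rose from 141 and 117 to 1616 and 1316 (3.50 ± 0.23), and WNT7B fell from 2140.5 and 2575 to 39.4 and 35.3 (-5.94 ± 0.42). The receptor FZD1 fell from 6659 and 5930.4 to 370.1 and 534 (-3.82 ± 0.22). Of the secreted inhibitors DKK1 rose from 19.8 and 16.2 to 778 and 533 (5.09 ± 0.52), APCDD1 from 31.7 and 27.2 to 219 and 287 (3.05 ± 0.22) and SFRP4 to 196 and 262, whereas SFRP1 fell from 48297 and 42086 to 4074 and 5647 (-3.23 ± 0.20). Of 42 NOTCH and Hedgehog genes 12 rose and 11 fell (28.6% and 26.2%), near the 21.7% and 20.1% of all genes. The NOTCH ligand JAG1 rose from 900.4 and 957 to 4120.3 and 3897 (2.11 ± 0.12), JAG2 fell from 103 and 154 to 8.31 and 1.83, and the Hedgehog factor GLI3 fell from 3376 and 2949 to 1424 and 1046 (-1.37 ± 0.19). YAP and TEAD targets rose in 18 and fell in 7 of 32 cases (median 0.81); CRIM1 and AJUBA rose by 2.71 ± 0.22 and 2.12 ± 0.17, while the coactivator WWTR1 (TAZ) itself fell from 30116 and 26619 to 4109 and 5759 (-2.54 ± 0.28).

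Of 65 G protein-coupled receptors, 26 rose and 20 fell. Here 12 had entered through 1 group alone. OXTR, the oxytocin receptor, rose from 52.5 and 66.95 to 3657 and 2303 (5.59 ± 0.29), and ACKR3, which scavenges CXCL12, rose from 0 and 1.97 to 285 and 322. The protease-activated receptor F2RL1 fell from 363 and 396 to 4.16 and 6.09, the purinergic receptor P2RY1 from 1814 and 1773 to 27.1 and 57.3 (-5.47 ± 0.47) and the dopamine receptor DRD2 from 376 and 476 to 16.8 and 18.4 (-4.51 ± 0.40). Of 35 potassium channels 16 fell and 8 rose, 8 having entered the comparison through 1 group alone. KCNN3 and KCNN4, calcium-activated channels, fell from 3184 and 3892 and 3277 and 3482 to 108 and 49.97 and 175 and 181 (-5.56 ± 0.47 and -4.24 ± 0.11), and KCNA2 fell from 1075 and 1021 to 14.97 and 25.5 (-5.67 ± 0.54); the regulatory subunit KCNE4 rose from 49.4 and 37.6 to 1838 and 2061 (5.46 ± 0.19). The remaining channel list rose in 21 and fell in 12 of 54 cases. The ATP-gated channels P2RX7 and P2RX4 rose to 744 and 568 and 492 and 648 from 12.9 and 19.4 and 33.6 and 26.3 (5.27 ± 0.28 and 4.20 ± 0.20), while the calcium channel TRPV4 fell from 2266 and 1848 to 85.2 and 117 (-4.34 ± 0.23). Synaptic genes fell in 18 and rose in 10 of 45 cases (7 through 1 group alone). L1CAM, a neural adhesion molecule, rose from 5999 and 7878 to 23097 and 25295 (1.81 ± 0.17), and GRIN2A, an NMDA receptor subunit, from 67.1 and 63.7 to 479.99 and 459 (2.82 ± 0.43). Among axon guidance genes (14 rose and 15 fell of 50), NTN4 rose from 181 and 125 to 2784 and 2967 (4.25 ± 0.21), EFNB2 fell from 1583 and 1293 to 52.9 and 57.3 (-4.67 ± 0.25), and the netrin receptor DCC was at 168 and 75.6 in parental cells and listed at 0 in PBRT16.

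Collagen chains rose in 13 and fell in 7 of 27 cases (4 through 1 group alone). COL5A1, a fibril-regulating chain, rose from 593 and 812 to 15495 and 19618 (4.65 ± 0.21), and the microfibrillar COL6A1 and COL6A2 rose by 3.44 ± 0.17 and 3.79 ± 0.17. Among the chains that fell, COL9A3, of cartilage, went from 1339 and 1416 to 1.36 and 6.5, and COL22A1 from 6389 and 5718 to 193 and 145 (-5.17 ± 0.18). COL1A2, the partner of COL1A1 in type I collagen and chosen after its values were seen, stood at 14.03 and 23.2 in parental and 19.9 and 15.4 in PBRT16 cells (-0.04 ± 0.27, adjusted p = 0.91), so only COL1A1 of the pair rose. Matrix proteases and their inhibitors rose in 16 and fell in 14 of 44 cases. Of these genes 9 entered through 1 group alone. ADAMTS2, which trims procollagen, rose from 21.95 and 19.3 to 1767 and 2214 (6.52 ± 0.16) and MMP19 from 1.84 and 0 to 390.1 and 386; the membrane protease MMP16 fell from 8141 and 5987 to 116 and 144 (-5.74 ± 0.21) and ADAMTS9 from 3871 and 3637 to 203 and 195 (-4.23 ± 0.28). CHST11, a chondroitin sulfotransferase, fell from 9762 and 8026 to 489 and 476 (-4.19 ± 0.20). In its proteoglycan list 20 of 44 rose and 14 fell. TGFBI, a matrix protein induced by TGFβ, rose from 17951 and 17736 to 150660.0000 and 195144 (3.26 ± 0.16). LOX, which crosslinks collagen, fell from 1764 and 2085 to 46.1 and 51.3 (-5.27 ± 0.23), while its relative LOXL1 was listed at 0 in parental cells and reached 1678 and 1634.

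Integrin and laminin subunits rose in 12 and fell in 7 of 32 cases. LAMA3, a chain of epithelial laminin, rose from 19.5 and 36.6 to 2173 and 2442 (6.37 ± 0.44), and ITGA8 and ITGA11, the latter a collagen receptor, rose by 4.94 ± 0.36 and 3.18 ± 0.31. ITGA6, a laminin receptor subunit, fell from 40506 and 39367 to 959 and 1190.5 (-5.22 ± 0.17) and ITGA9 from 3607 and 2969.5 to 49.2 and 19.4 (-6.68 ± 0.43). Of 29 protocadherins, 14 rose and 6 fell, 11 of them entering through 1 group alone; PCDH1 fell from 2941 and 3348 to 30.2 and 30.97 (-6.64 ± 0.33), and the rising ones were mostly clustered genes of low level that share sequence. Muscle-type contractile genes rose in 10 and fell in 2 of 25 cases. MYLK, the kinase of myosin light chain, rose from 1109 and 1129.6 to 14028 and 12226 (3.55 ± 0.12), tropomyosin TPM1 from 4598 and 4999.5 to 33021 and 26902 (2.64 ± 0.19), CALD1 from 8269 and 8249 to 40375 and 37428 (2.23 ± 0.14) and MYPN, a sarcomere protein, from 10.98 and 11.9 to 834 and 879.995 (6.11 ± 0.34). TAGLN rose but varied between the PBRT16 libraries (1949 and 624), and ACTA2, smooth muscle actin, did not pass the test (-0.61 ± 0.26, adjusted p = 0.12). The neural intermediate filament NES, nestin, fell from 40369 and 48157 to 5688 and 6681 (-2.84 ± 0.15), and NEFL rose from 1104 and 1227 to 5168 and 4826 (2.10 ± 0.20).

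Genes of the NRF2 antioxidant response and of xenobiotic metabolism rose in 34 and fell in 4 of 59 cases (6 through 1 group alone), with a median of 0.83. SLC7A11, which imports cystine for glutathione, rose from 269 and 248 to 2345 and 2549 (3.24 ± 0.30), and the drug exporter ABCC3 from 67.2 and 28.3 to 972 and 1397 (4.71 ± 0.51). AKR1C3 and AKR1B10, aldo-keto reductases, rose from at most 3.7 to between 35.2 and 78.5, the call of AKR1B10 resting on PBRT16 replicate 2 (adjusted p = 0.0591 without PBRT16 replicate 2). TXNRD1 and GCLM, chosen after their values were seen, rose by 2.02 ± 0.12 and 1.76 ± 0.17; NQO1, a widely used readout of this response, stood at 11450.3 and 10161 against 11676 and 10050.5 and did not pass the test (0.01 ± 0.14, adjusted p = 0.98). Of 26 ABC transporters 11 rose and 3 fell, ABCC1 (MRP1) from 1212 and 1241 to 6955 and 6896 (2.50 ± 0.16) and ABCG2 (BCRP) from 99.2 and 102 to 293 and 276 (1.49 ± 0.13). The ferritin chains FTL and FTH1, which store iron, rose by 2.58 ± 0.14 and 1.60 ± 0.12, to 137771 and 164245 for FTL; both have many processed copies in the genome.

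Lysosome and autophagy genes rose in 27 and fell in 6 of 80 cases. The protease CTSD rose from 3147 and 4069.8 to 17019 and 21022 (2.40 ± 0.24), the autophagy receptor OPTN from 838 and 765 to 3783 and 3649 (2.21 ± 0.13), and CTSC fell from 3068 and 3399.8 to 428 and 365 (-3.03 ± 0.18). In the integrated stress response list 11 of 38 genes rose and 5 fell. NUPR1, a stress-induced chromatin protein, was listed at 0 in parental cells and reached 396 and 511, and the arrestin TXNIP, which limits glucose uptake, rose from 181 and 232 to 5074 and 7714 (4.92 ± 0.31), whereas GDF15 and STC2 fell to 1.2 and 1.26 and 43.8 and 29.7 from 30.4 and 49.01 and 496 and 772. Lipid genes were mixed, with 17 of 46 fatty acid and triglyceride genes rising and 10 falling and only 2 and 2 of 26 cholesterol genes. ELOVL2, which elongates polyunsaturated fatty acids, rose from 287 and 199 to 1773 and 1694 (2.85 ± 0.20), and ACSS2 and ACSL3, which activate acetate and fatty acids, fell (-1.98 ± 0.12 and -1.505 ± 0.21). UGCG, which makes glucosylceramide, rose from 1003 and 983 to 4745 and 4606 (2.23 ± 0.12), and ST8SIA5, a ganglioside sialyltransferase, fell from 2263 and 2322 to 27.7 and 23.7 (-6.43 ± 0.33). The retinoic acid hydroxylase CYP26B1 rose from 665 and 431 to 4335 and 3735 (2.91 ± 0.24). In arginine metabolism the nitric oxide synthase NOS2 fell from 422 and 506 to 44.2 and 50.6 (-3.26 ± 0.20), arginase ARG2 from 379.95 and 278 to 61.4 and 55.6 (-2.46 ± 0.18) and ODC1, the first enzyme of polyamine synthesis, from 3210.2 and 4701 to 1720.3 and 1642 (-1.21 ± 0.22). GDF15 and ODC1 lost their calls when a library was left out (adjusted p = 0.0662 without parental replicate 2 and adjusted p = 0.0592 without PBRT16 replicate 2).

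All 13 mitochondrially encoded protein genes were in the comparison, 11 fell and by limma none rose at the adjusted p (0 at an unadjusted p under 0.05), with a median of -0.58. MT-ND5, a subunit of complex I, fell from 118215 and 115447 to 67740.3 and 70127 (-0.76 ± 0.11) and MT-CO3, of cytochrome oxidase, from 215511 and 199983 to 127595 and 130450.0000 (-0.69 ± 0.11). The share of a library's signal from the mitochondrial genome was 6.3% and 6.15% in parental and 4.43% and 4.53% in PBRT16 cells. Nuclear genes of the respiratory chain did not share this direction, 12 of 75 rising and 15 falling (median -0.04). Cytosolic ribosomal proteins had the smallest share of passing genes of all 72 lists, with 4 of 80 rising, 2 falling and a median of -0.04. Mitochondrial ribosomal proteins rose in 7 and fell in 14 of 77 cases, and aminoacyl-tRNA synthetases in 1 and 10 of 38, the mitochondrial enzyme MARS2 among the falls (-1.65 ± 0.12). Folding genes of the endoplasmic reticulum fell in 18 and rose in 7 of 47 cases. HSPA5 (BiP) fell from 73540.2 and 60159 to 21689.5 and 17307 (-1.78 ± 0.18), its co-chaperone DNAJB11 from 9001 and 7070.3 to 2878 and 2698 (-1.52 ± 0.19) and FKBP11 from 748 and 786 to 109 and 114 (-2.77 ± 0.11). Cytosolic chaperones fell in 12 and rose in 6 of 42 cases, chromatin regulators in 24 and 15 of 105, and clock genes in 3 and 2 of 23, where NPAS2 fell (-1.86 ± 0.19) and NFIL3 and BMAL2 rose (2.12 ± 0.14 and 2.06 ± 0.19). Messages of replication-dependent histone genes lack a poly(A) tail, so mRNA libraries capture them poorly. Of 56 such genes 12 were in the comparison, all of low level and 3 through 1 group alone. Of these 12 genes 5 rose, and by limma none fell at the adjusted p (0 at an unadjusted p under 0.05). H2AC6 led the rises (9.64 and 4.02 to 61.2 and 32.4) but had entered through PBRT16 libraries only. HMGA2, an architectural chromatin protein, fell from 928 and 919 to 187 and 239.9 (-2.12 ± 0.17). Of 14 commonly used reference genes 1 fell, TBP (-0.51 ± 0.12), and 3 rose, B2M, ACTB and SDHA (1.503 ± 0.14, 0.66 ± 0.17 and 0.63 ± 0.11); of these calls that of B2M alone held without any 1 library (adjusted p = 0.116 without PBRT16 replicate 2, adjusted p = 0.141 without parental replicate 1 and adjusted p = 0.0626 without PBRT16 replicate 2 for TBP, ACTB and SDHA).

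CD44, the hyaluronan receptor, took 0.188% and 0.2% of the signal in parental and 0.866% and 0.825% in PBRT16 libraries, the largest gain of any gene. TGFBI followed, from 0.0642% and 0.0636% to 0.534% and 0.683%, then FTL, from 0.0924% and 0.0874% to 0.488% and 0.575%, and FSTL1, a secreted glycoprotein, from 0.054% and 0.0541% to 0.486% and 0.474%. ASPH, a hydroxylase of the endoplasmic reticulum, rose from 0.0603% and 0.058% to 0.232% and 0.287%, and MYH9, nonmuscle myosin, from 0.0395% and 0.0544% to 0.277% and 0.228%. The largest losses were mitochondrial transcripts (MT-CO2 from 1.02% and 1.04% to 0.629% and 0.67%), SERPINE2 (0.263% and 0.215% to 0.0106% and 0.013%) and HSP90B1, the endoplasmic reticulum form of HSP90 (0.375% and 0.31% to 0.137% and 0.149%). SLC5A3, the myo-inositol transporter, went from 0.217% and 0.127% to 0.0122% and 0.0152%. The 100 most abundant genes of each group held 21.1% of the signal in parental and 22.4% in PBRT16 cells, so the concentration of signal in them was close in both.

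Long noncoding RNAs were called as often as coding genes or more often: 295 of 2090 (14.1%) higher and 294 (14.1%) lower, beside 1730 (13.2%) and 1277 (9.74%) of 13115 protein-coding genes. LOXL1-AS1, transcribed next to LOXL1, was listed at 0 in parental cells and reached 756 and 634; the libraries were stranded, but the sources used here do not give the strand setting of the counting. WFDC21P, LINC00842 and CEACAMP10 were likewise listed at 0 and reached 665 and 685, 559 and 435 and 442 and 519. LINC02119 and LINC02732 were at 1013 and 832 and 666 and 751 in parental cells and at most 0.993 in PBRT16. Of better-known transcripts, SBF2-AS1 rose from 244 and 203 to 3516 and 3067 (3.88 ± 0.17), the hypoxia-linked MIR210HG from 86.3 and 92.5 to 405 and 840.2 (2.69 ± 0.56; adjusted p = 0.0892 without parental replicate 1) and LINC00511 fell from 2655 and 2421 to 116 and 109.9 (-4.48 ± 0.12). Imprinted genes, expressed from the copy of 1 parent, fell in 12 and rose in 6 of 27 cases. H19 and IGF2, neighbors under a shared control region, fell together, H19 from 4668 and 5911 to 23.99 and 44.6 (-7.28 ± 0.32), while MEG3 rose from 7742 and 5894 to 19733 and 20343 (1.57 ± 0.16) and PLAGL1 from 242 and 177 to 821 and 1156 (2.23 ± 0.30). Of 58 cancer-testis antigens only 8 entered the comparison; TEX15 fell (-1.04 ± 0.16) and by limma none rose at the adjusted p (0 at an unadjusted p under 0.05).

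Along the genome, 1 chromosome arm stood apart, a region picked after its values were seen. Of 11641 genes with a mean of at least 100, the 517 on chromosome 1 beyond its widest gap between genes (from 143894544 on GRCh38, which is the long arm) had a median log2 fold change of -0.61, and 81.6% of them lay below 0, beside -0.01 and 50.4% for the 665 genes on the other side of the gap and -0.03 and 52.3% for all. On the long arm 129 genes (24.95%) were called lower and 20 (3.87%) higher, against 8.77% and 11.1% of all 11641. Taken 50 genes at a time along the arm, the medians lay between -0.8 and -0.47 in all 10 windows. Both PBRT16 libraries showed it, with medians of -0.59 and -0.63 against the parental mean. The same genes had a median of -0.17 in PBRT15 against parental cells and of -0.47 in PBRT16 against PBRT15. Named genes of this arm that fell include S100A1, SV2A, PRRX1, MCL1, SDHC and PSMB4. These are examples of falls only, beside the 20 genes of the arm called higher. Chromosome 13 (206 genes) had a median of -0.37 in PBRT16 and -0.38 in PBRT15, and chromosome 20 split, with 0.47 for 101 genes before its widest gap and -0.36 for 216 after it (0.43 and -0.44 in PBRT15).

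**Figure D4:**
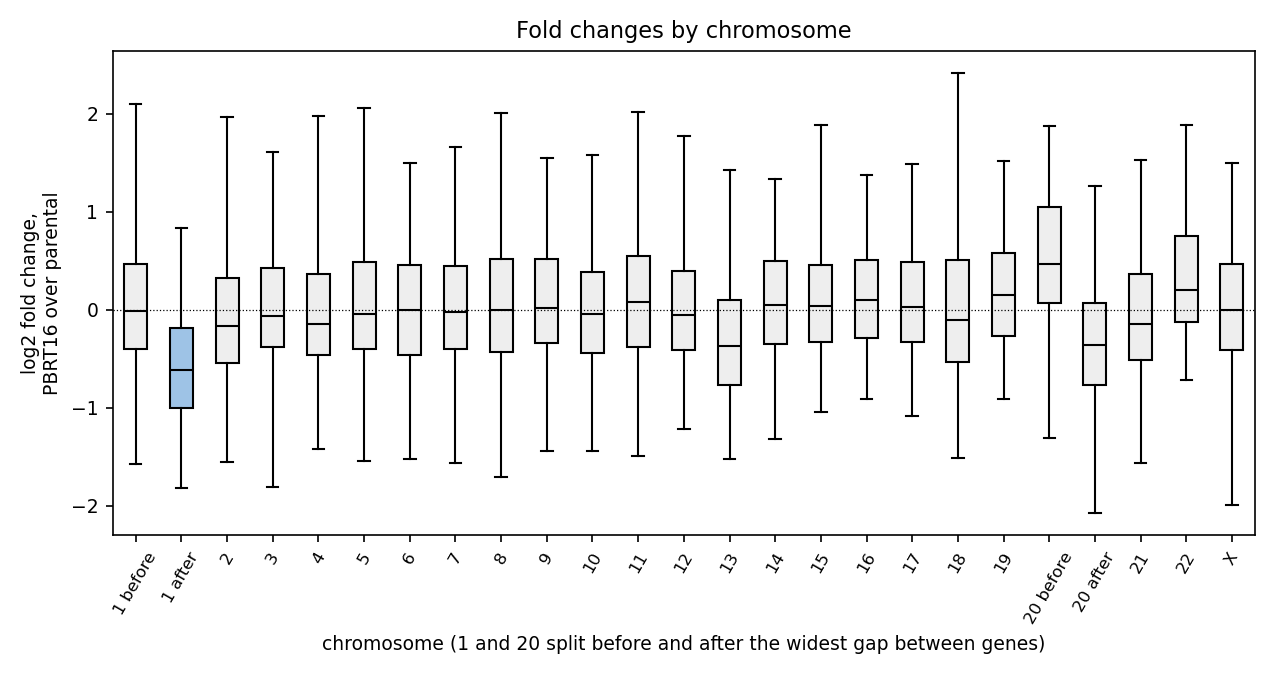
Log2 fold change of PBRT16 over parental cells for the 11641 genes with a mean of at least 100, by chromosome, with chromosomes 1 and 20 split at their widest gap between genes; boxes span percentiles 25 to 75 of the genes, the line is the median and whiskers reach percentiles 5 and 95. Most medians lie within 0.2 of 0, and the long arm of chromosome 1 (blue, -0.61) lies lowest.

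Base composition moved with the comparison too. In 4 groups of equal size by the GC content of the longest GENCODE transcript, the median log2 fold change was -0.19 in the lowest (27.8% to 41.4% GC), -0.13 and -0.05 in the middle groups and 0.28 in the highest (55.2% to 71.4%). Genes of the long arm of chromosome 1 lay lower than the whole group in each case, at -0.8, -0.69, -0.6 and -0.33 from the lowest to the highest GC. The part of GC content in the results of single genes was not tested. These medians are descriptions of a region picked for its low values. Among the falls on that arm, SDHC, a subunit of succinate dehydrogenase, went from 7450.3 and 7156 to 4439 and 4788 (-0.66 ± 0.11) and the proteasome subunit PSMB4 from 10028 and 8922 to 5112 and 4878 (-0.92 ± 0.12); the call of SDHC ended in 1 case (adjusted p = 0.0535 without PBRT16 replicate 1).

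PBRT16 was not a copy of the other resistant line. Among the 16051 genes 772 (4.81%) were higher and 657 (4.09%) lower in PBRT16 than in PBRT15. Of the 2109 genes higher than in parental cells, 368 were also higher than in PBRT15 and 111 were lower; of the 1641 lower genes 293 were also lower than in PBRT15 and 89 were higher. The parental libraries enter only the first of these contrasts, and both contrasts share the PBRT16 libraries, so a PBRT16 value that is extreme by error would count in both. The counts of 772 and 657 against PBRT15 depend on single libraries: both were smaller whenever 1 library was left out. This held for the parental libraries too, which enter that contrast only through the shared estimate of the spread. SPRY4 and IGF2 were at 2525 and 2349 and 2042 and 2142 in PBRT15, between the groups or close to the parental level, and far lower in PBRT16, with a log2 fold change of PBRT16 against PBRT15 of -6.03 for SPRY4 and PBRT16 values of IGF2 too low for a fold (5.8 and 9.47). CCND1 and CDKN1A, chosen after their values were seen, were at 10329 and 8511 and 3365 and 5859 in PBRT15 (-2.13 and -4.02 on that scale). PRRX1 at 759.7 and 804, LOX at 4658 and 3104 and the receptor phosphatase PTPRD at 553 and 593, the latter 289 and 469 in parental and 0.556 and 1.93 in PBRT16 cells, were likewise lowest in PBRT16 of the 3 groups. SV2A and ALDH7A1 were as high in PBRT15 (1032 and 1179 and 1101 and 1228) as in parental cells or higher, so their loss was found in PBRT16 alone of these 3 groups.

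On the higher side, TGFBI was at 11913 and 12684 in PBRT15, below the parental values, and NDRG1, a gene induced by hypoxia, at 3849.8 and 6799.8 beside 5757 and 8985 in parental and 42206 and 72707 in PBRT16 cells (3.44 against PBRT15). GALNT15, KCNE4 and PRUNE2 were at 14.6 and 38.7, 124 and 152 and 58.5 and 142 in PBRT15 and rose in PBRT16 by 6.63, 3.82 and 4.13 against it. CADM3, a neural adhesion molecule, was lower than in parental cells in both lines but at 2255 and 2007 in PBRT16 against 132 and 117 in PBRT15. Several genes that had risen in PBRT16 were much higher in PBRT15: IGFBP5 at 393408 and 296353, QPRT, an enzyme of NAD synthesis, at 1626 and 1902 against 16.4 and 15.1 in PBRT16, and COL6A3 at 474129 and 486261 against 6924 and 6962. THY1 and COL1A2, chosen after their values were seen, were at 19570.0000 and 19760.0000 and 38539.6 and 41287 in PBRT15 and near the parental level in PBRT16 (8.14 and 6.84 and 19.9 and 15.4). ISG15, IFIT1 and OAS1, chosen after their values were seen, were higher in PBRT15, at 1465 and 1153, 4228 and 3094 and 2597 and 2024, with log2 fold changes of PBRT16 against PBRT15 of -2.23, -2.35 and -2.49.

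**Figure D5:**
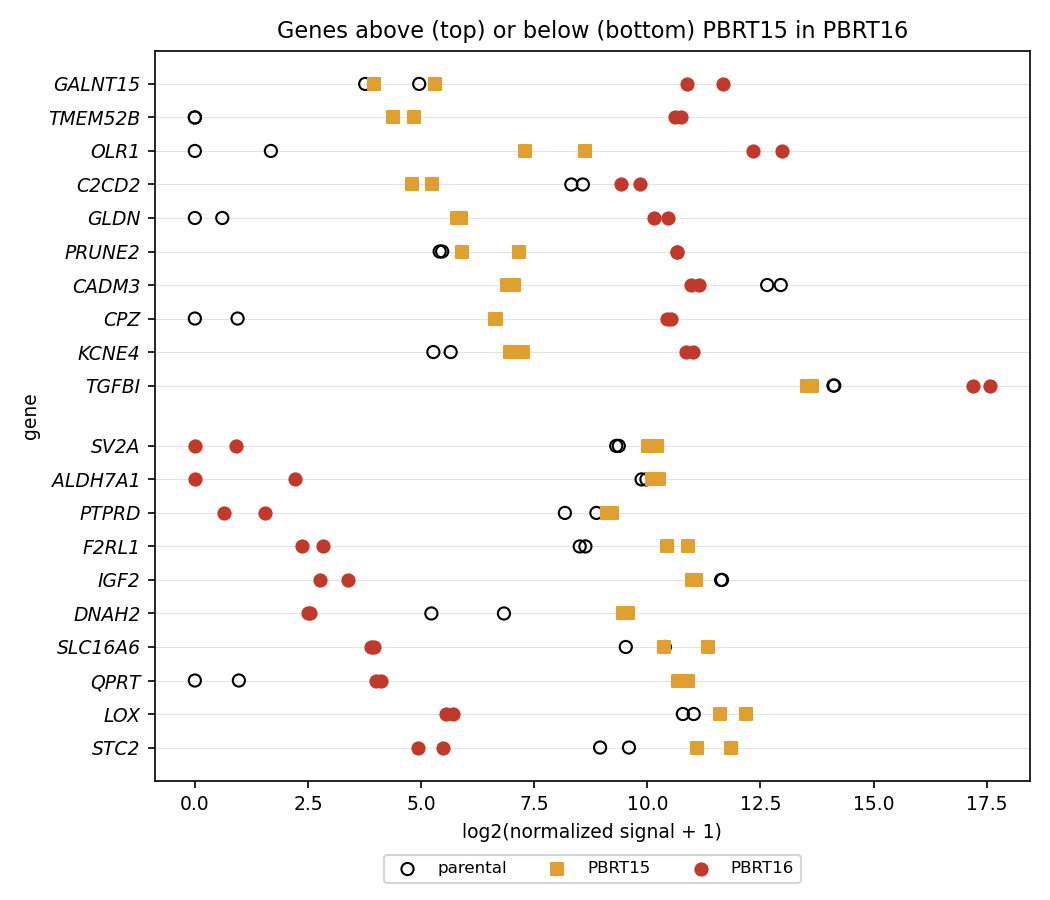
Signal per library, as log2(value + 1), in parental cells, PBRT15 and PBRT16 for the 10 genes most above (upper part) and the 10 most below (lower part) their PBRT15 level in PBRT16, among genes called against parental cells with a mean of at least 500 in the higher group of the 2 lines. In the upper part the filled PBRT16 circles lie to the right of the PBRT15 squares, as with TGFBI and KCNE4, and in the lower part to the left, as with SV2A and LOX.

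Most of the transcriptome could not be placed on either side. Of the 16051 genes 9348 had an adjusted p over 0.05. For 7749 genes the 95% interval of the log2 fold change lay within a fold of 2, and for 2849 within a fold of 1.5, so for these a larger difference between the groups is outside the interval. With 2 libraries a group and 3 residual degrees of freedom, no gene with a mean of at least 1000 had an interval inside a fold of 1.2. MYC, chosen after its values were seen, is an example: it stood at 1766 and 1934 in parental and 1522 and 2409.96 in PBRT16 cells, with an interval of -0.60 to 0.70.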

How the data were processed

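mRNA libraries were prepared with a stranded kit and sequenced as paired reads, 2 libraries from each of 3 groups. The deposited values are a normalized signal per gene: the authors mapped reads to GRCh38 and quantified genes with RSEM, with STAR 2.6.1a, Picard and DESeq2 among the tools in the submitters' notes. The sources used here do not give the step that set the libraries to a common scale, so the depth of each library is known only through the scaled totals, and no count test was applied.

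Of 60662 identifiers, 45 pseudoautosomal copies were left out. Names came from GENCODE 44, which holds 60357 of the remaining 60617 identifiers, 49802 of them in the same version. Genes with a value of at least 10 in at least 2 of the 4 parental and PBRT16 libraries were fitted with limma 3.58.1 (R 4.3.3) on log2(value + 1), with 3 groups, all 6 libraries and no covariate (3 residual and 2.01 prior degrees of freedom). P-values are two-sided and Benjamini-Hochberg adjusted over all genes fitted. A value after ± is the standard error of a log2 fold change, which understates the change of low genes. A fold is printed only where the mean of both groups reached 10; fitted differences given in the closing section for lower groups are not folds. The fit was tested on simulated data.

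Gene lists (72) were written from general knowledge; members and lists were chosen with earlier results of these data known. Named genes are the largest changes in protein-coding genes with a mean of at least 500, in each list, in noncoding genes, in share of the total and against PBRT15. SOX10, BIRC2, BIRC3 and XIAP were added, and others are said to have been chosen after their values were seen. The largest protein-coding and noncoding changes were also required to be called, with libraries that did not overlap. Of 309 names, 300 passed, with adjusted p of at most 0.0463. Promoters came from RefSeq (GRCh38.p14) and were matched by symbol. A few results are not reported here. The counts of calls and of list members, the named genes and the median of the long arm of chromosome 1 were recomputed under 20 settings. Without the fold limit, and in limma's test against a fold of 2, only the calls against parental cells were. Other descriptions, such as promoter motifs, GC content, shares of the signal and the other chromosomes, were not recomputed.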

Additional observations from a re-analysis of the deposited data

Results flagged for a closer look

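The genes here were called in opposite directions in the lines against parental cells, and the difference between the lines, tested by the contrast of PBRT16 with PBRT15 in the same limma fit, was called too. There were 41 such genes, 16 of them higher in PBRT16 and 25 lower; those with a mean of at least 500 in a group and the largest differences follow, as values. F2RL1, the protease-activated receptor, had parental values of 363 and 396, PBRT15 values of 1911 and 1374 and PBRT16 values of 4.16 and 6.09 (fitted difference of PBRT16 from PBRT15, as log2(value + 1), -8.07). DNAH2, an axonemal dynein, stood at 113 and 36.5, 705 and 756 and 4.86 and 4.67 in the same order (-6.99). STC2, a secreted glycoprotein, was at 496 and 772, 3677 and 2182 and 43.8 and 29.7 (-6.26), and the bicarbonate transporter SLC4A4 at 21.8 and 24.9, 466 and 583 and 7.96 and 9.09 (-5.78). EMC10, a subunit of the endoplasmic reticulum membrane complex, was at 417 and 457, 1313 and 1498 and 70.99 and 74.6 (-4.25). C2CD2 moved the other way, at 381 and 319, 36.7 and 26.9 and 913 and 681 (4.61). For F2RL1, DNAH2 and SLC4A4 the PBRT16 values are of a few reads, so their fitted differences depend on the pseudocount and are not folds. The call of C2CD2 against parental cells ended without a library (adjusted p up to 0.0779). Groups of 2 libraries are too small for a test of single libraries that stand apart.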

How the results depend on the processing

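No gene called against parental cells turned its direction under any of the 20 settings. Without the fold limit 3478 genes were higher and 3225 lower, and 948 and 765 in limma's test against a fold of 2, which are the construction of those tests. With no filter on low values 407 members of lists fell in place of 617; the cause was not tested. NQO1 turned to -0.018 with values scaled to the library total. Other scalings, pseudocounts, minimums and priors left the counts of calls against parental cells within 1.5 times.

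Leaving out 1 library gave 1728 to 2092 higher and 1283 to 1635 lower genes against parental cells, 330 to 650 and 364 to 501 against PBRT15, and 515 to 699 rising and 391 to 585 falling list members. Values that had not passed the test changed sign for COL1A2 (-0.383 to 0.303), EGR1 (-1.098 to 0.358), MYC (-0.279 to 0.383) and NQO1 (-0.102 to 0.114). The call ended in at least 1 such fit for 22 of the 300 named genes that had passed; beside those given in the text these were C2CD2 (adjusted p up to 0.0779), JUN (0.161), MT-CO2 (0.0562), OAS1 (0.0655) and SLC1A3 (0.0719). The difference of the long arm of chromosome 1 from all genes stayed between -0.6 and -0.56.

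Replicate numbers are shared by title only, and with 2 pairs they do not establish a pairing: the deviations of same-numbered libraries correlated across 11654 genes at -0.02 for parental and PBRT16 and at 0.26 for PBRT15 and PBRT16. With the replicate block 2101 genes were higher and 1620 lower against parental cells, and CALR, PDIA3 and ACTB lost their calls (adjusted p = 0.0699, 0.0557 and 0.0618). Genes under the minimum of 10 were not tested, and a value of a few reads in 1 group allows no fold.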

Other observations

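Outside the groups above, transport and junction genes gave mixed pictures. Amino acid transporters rose in 7 and fell in 3 of 25 cases: SLC38A2, a sodium-coupled transporter of neutral amino acids, rose from 4105 and 3284 to 8429 and 10813 (1.38 ± 0.22), while SLC1A3, a glutamate transporter of glia, fell from 804 and 611 to 128 and 208 (-2.10 ± 0.38). Metal transporters and metallothioneins rose in 7 and fell in 3 of 31 cases, with STEAP3, an endosomal iron reductase, at 2246 and 2641 in parental and 5577 and 6501 in PBRT16 cells (1.31 ± 0.15). Claudins, occludin and gap junction proteins rose in 7 and fell in 4 of 21 cases (5 through 1 group alone). CLDN2, which entered through parental libraries only, fell from 148 and 58.9 to 0 and 0.872. The tight junction protein MARVELD2, which entered through PBRT16 libraries only, rose from 2.23 and 0 to 42.4 and 50.5. Keratins and other intermediate filaments rose in 6 and fell in 6 of 20 cases (5 through 1 group alone). Classical cadherins and desmosome genes rose in 3 and fell in 3 of 10, where PERP, also a p53 target, rose from 5643 and 5199 to 10011 and 11792.

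Of 54 genes of serine, one-carbon and nucleotide synthesis, 16 fell and 7 rose. MTAP, the methionine salvage enzyme, fell from 7158 and 6458 to 2339.6 and 2685 (-1.44 ± 0.13), and NNMT, which methylates nicotinamide, rose from 499 and 612 to 2268 and 2899 (2.21 ± 0.18). Retinoid and steroid genes rose in 10 and fell in 5 of 22 cases, and those of arginine, proline, polyamine and kynurenine metabolism in 4 and 9 of 34. Prostaglandin, leukotriene and sphingolipid genes rose in 12 and fell in 8 of 40 cases (6 through 1 group alone). PTGES, a prostaglandin E synthase, went from 3.25 and 1.02 to 80.1 and 96.5, and SPTLC3, a subunit of serine palmitoyltransferase, from 0.784 and 0 to 85.99 and 217 with a value of 0.742 and 0.699 in PBRT15. Well-known long noncoding RNAs fell in 22 and rose in 16 of 65 cases.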
